A study of Homo sapiens with 8 samples.

Results

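The HOX cluster genes were taken as every gene that a probe set names alone and whose symbol is HOX with a cluster letter from A to D and a number. A gene with several probe sets was read from its brightest one, by the mean of the 8 arrays. This gave 28 genes out of 19775 measured, and 28 of the 39 HOX genes that RefSeq lists. All 10 HOXB genes and all 9 HOXC genes were among them, with 8 of the 9 HOXD genes but only 1 of the 11 HOXA genes, HOXA2. The other 10 HOXA genes and HOXD3 were not analysed here, because no probe set names them alone in the platform annotation used.

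The arrays were made from MDA-MB-231, an established human breast cancer line of metastatic origin that carries a mutant p53. Cells of both groups carried a retroviral short hairpin RNA against GFP as a control and went without serum for 24 h. One group of 4 arrays then received TGFβ for 3 h, labelled as 5 µg/ml, a unit that is uncertain because TGFβ is usually given in ng/ml, and the other 4 arrays were of untreated cells. The series is about genes that TGFβ and mutant p53 control together. Its p53-depleted arrays were not analysed here, so the comparison covers which HOX genes give a signal in this line and whether TGFβ moves them. The cells are 1 line at 1 time point, in serum-free medium and with a hairpin in both groups.

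HOX genes encode homeodomain transcription factors that give cells their position along the head-to-tail axis of the embryo. They lie in 4 clusters and are numbered by paralog group, with low numbers active early and towards the head (anterior) and high numbers late and towards the tail (posterior). They bind DNA with TALE homeodomain partners of the PBX, MEIS and PKNOX families. Their on and off states are held by MLL and Polycomb chromatin complexes, and retinoic acid switches on anterior members. Adult mammary epithelium keeps some HOX genes on, and breast cancer lines differ in which ones.

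The promoters of HOXD1 and HOXD4 are shown because these are the members above the background threshold used below for which RefSeq (GRCh38.p14) gave a start window. Each window runs from 250 bases before to 50 bases after the gene start, 5′ to 3′, and capitals mark CAGAC, the core that SMAD proteins bind, and ATTGG, the reverse form of a CCAAT box, on either strand. The first lies at chr2:176188418-176188717 and the second at chr2:176151300-176151599, both on the plus strand.
HOXD1: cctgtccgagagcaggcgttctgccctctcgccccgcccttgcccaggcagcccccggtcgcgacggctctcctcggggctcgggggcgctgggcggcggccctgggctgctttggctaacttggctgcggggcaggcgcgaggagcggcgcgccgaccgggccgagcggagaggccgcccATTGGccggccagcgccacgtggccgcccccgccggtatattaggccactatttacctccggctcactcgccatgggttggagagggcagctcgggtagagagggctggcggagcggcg
HOXD4: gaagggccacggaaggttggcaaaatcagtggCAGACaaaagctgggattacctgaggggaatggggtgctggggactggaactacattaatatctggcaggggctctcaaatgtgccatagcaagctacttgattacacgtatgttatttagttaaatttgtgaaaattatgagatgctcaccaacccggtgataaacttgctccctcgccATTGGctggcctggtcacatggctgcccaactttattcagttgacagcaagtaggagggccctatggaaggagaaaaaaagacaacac

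The windows differed in composition. That of HOXD1 was 74.3% G or C with 36 CpG pairs, that of HOXD4 47.3% with 4, and the median over all 35116 windows in the table was 58.7% and 14. CAGAC or its complement GTCTG occurred once in the HOXD4 window and not in that of HOXD1. It was in 3 of the 11 windows of members that had one, and in 45.3% of all windows. The longer SMAD palindrome GTCTAGAC was in none of the 11, and in 0.202% of all windows. ATTGG or CCAAT was in 9 of the 11, against 34.6% of all windows, and HOXC4 and HOXC5 share 1 window. A match is only the presence of these letters.

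The values are RMA signals on a log2 scale. RMA gives no call of presence, and the signal of a probe set also depends on its probes, so the order of signals between genes is not an order of transcript amounts. As a measure of background, 46 genes of other tissues (liver, pancreas, eye, muscle, testis, blood, kidney and others) were read on the same arrays. Their median signal was 4.08, and a HOX gene was counted as above background when its mean over 8 arrays passed their 95th percentile, 5.95. Of all genes, 48.2% passed this line. Markers of the line were checked the same way. Vimentin (VIM, 13.64), CD44 (11.44), CAV1 (11.03) and AXL (9.69) lay above the threshold. The hormone receptors ESR1 (5.79) and PGR (3.19), the cadherin CDH1 (4.53) and FOXA1 (2.86) lay under it, and the luminal factor GATA3 (7.45) lay above it. The response to TGFβ was present, with log2 fold changes of 2.80 for EDN1, 1.81 for SMAD7 and 1.64 for JUNB (limma adjusted p = 0.000737, 0.0039 and 0.000168).

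Of the 28 HOX genes 5 lay above the threshold and 23 at or below it. The 5 were HOXD1 (mean signal 7.42, log2), HOXB9 (7.33), HOXC6 (6.91), HOXD4 (6.10) and HOXB3 (6.04). By position they were 2 of 5 anterior genes (paralog groups 1 to 3), 2 of 11 central genes (4 to 8) and 1 of 12 posterior genes (9 to 13). By cluster they were 2 of 10 HOXB genes, 1 of 9 HOXC genes and 2 of 8 HOXD genes. The only HOXA gene that the annotation used names alone, HOXA2, a gene of the pharyngeal arches, had a mean of 2.61. HOXB9, HOXC6 and HOXD1 were above the threshold on all 8 arrays, HOXD4 on 7 and HOXB3 on 5. For HOXB3 these were every untreated array and treated replicate B. Its mean was 6.27 untreated but 5.81 with TGFβ, under the threshold. The members just above the line were thus HOXB3, HOXD4 and HOXC6, and those just below it were HOXB4 (5.74), a factor of blood stem cells, HOXB7 (5.62) and HOXC5 (5.47). The count was 8 with the 90th percentile as the line, which added those 3, and 3 with the highest of the 46 genes, which dropped HOXD4 and HOXB3.

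**Figure D1:**
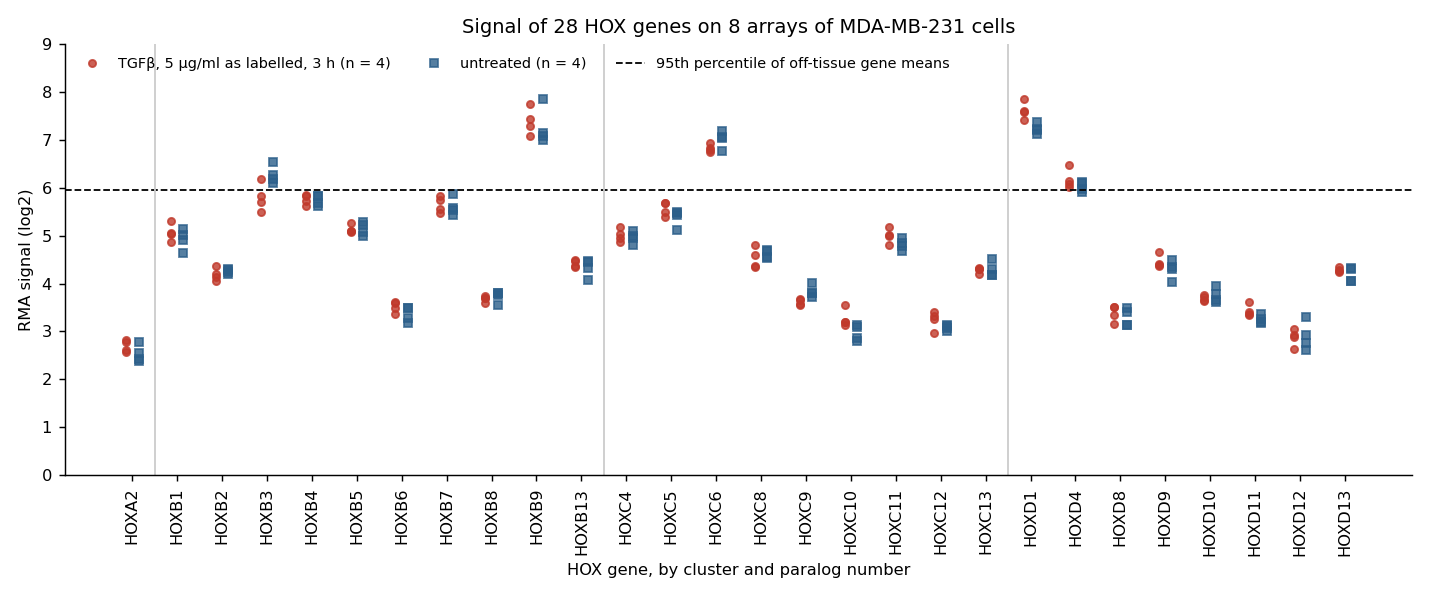
RMA signal (log2) of each of the 28 HOX genes on each array, TGFβ-treated as circles on the left and untreated as squares on the right of each gene, grouped by cluster. The dashed line is the 95th percentile (5.95) of the means of 46 genes of other tissues, and HOXD1, HOXB9, HOXC6, HOXD4 and HOXB3 have means above it.

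The 23 genes at or below the line had signals between 2.38 and 5.87 on single arrays. Among the posterior genes were HOXB13 (mean 4.37), known from prostate, HOXC13 (4.28), a factor of hair and nail, and HOXD13 (4.23), a factor of digit formation, all near the median of the genes of other tissues. HOXC10, HOXC12, HOXD8, HOXD11 and HOXD12 had means from 2.88 to 3.34. Neighbours in a cluster could lie on opposite sides of the line. HOXB9 (7.33) stands in the HOXB cluster between HOXB8 (3.71) and HOXB13 (4.37), and HOXD4 (6.10) stands beside HOXD8 (3.34).

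After TGFβ, none of the 28 genes passed the test at an adjusted p of 0.05 (limma over all 19775 genes, smallest adjusted p among the members 0.256). In bulk RNA, fewer cells with a transcript and less of it per cell cannot be told apart. Over all genes 0.576% were called in that fit, 0.354% higher and 0.223% lower. Before adjustment 4 of 28 members (14.3%) had a p under 0.05, against 8.14% of all genes. With the block described next it was also 4, against 15.3%. Arrays of the same replicate letter deviated together, though both D arrays correlated best with a C array. In the fit that blocks on the replicate letter HOXD1 passed as higher and HOXB3 as lower. This is 2 of 28 members (7.14%), where 3.57% of all genes were called, 1.39% higher and 2.18% lower. Without letter B, C or D in the block fit no member was called, and without letter A the same 2 were. The number of calls over all 19775 genes moved too. It was 705 with all letters, 1304 without A, and 288, 321 and 356 without B, C and D. The log2 fold changes in those fits without A, B, C or D were 0.41, 0.34, 0.37 and 0.39 for HOXD1 and -0.41, -0.50, -0.47 and -0.46 for HOXB3, and each such fit tests fewer arrays. Each of the 2 calls rests on 1 of the gene's 2 probe sets.

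HOXD1, the most anterior HOXD gene, which in mouse acts in pain-sensing neurons, had these values on the arrays. Its signal was 7.41, 7.85, 7.61 and 7.57 in TGFβ-treated cells (log2, replicates A to D), against 7.13, 7.37, 7.20 and 7.23 in untreated cells. Every treated array lay above every untreated one, the nearest being 7.41 treated and 7.37 untreated, and all 4 same-letter pairs had the treated array higher. The means were 7.61 ± 0.18 with TGFβ and 7.23 ± 0.10 without (SD, n = 4 each), a 1.30-fold difference. The log2 fold change was 0.38 ± 0.11 SE with a 95% interval of 0.13 to 0.62, and it passed with the block (limma adjusted p = 0.256, and 0.0348 with the block). Over all probe sets in place of 1 per gene the block fit gave an adjusted p of 0.0717.

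The 2 probe sets of HOXD1 disagreed. The other one had a mean signal of 2.39, at background, with 2.31, 2.37, 2.43 and 2.31 in TGFβ-treated cells and 2.21, 2.42, 2.77 and 2.32 in untreated cells. The treated arrays lay within the range of the untreated ones, and the log2 fold change was -0.073. Without probe sets of the types that can match several transcripts, this second set alone stands for HOXD1, and the gene is then neither above background nor higher after TGFβ. RefSeq start windows of HAGLR, a noncoding RNA of the opposite strand, overlap that of HOXD1 in 2 of 4 cases, and HAGLR had a mean signal of 7.87 with a log2 fold change of 0.12 ± 0.12 SE (limma adjusted p = 0.883, 0.539 with the block).

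HOXB3, an anterior gene of hindbrain and pharyngeal arches, ran the other way. Its signal was 5.49, 6.19, 5.84 and 5.71 in TGFβ-treated cells, against 6.09, 6.53, 6.26 and 6.18 in untreated cells. The groups overlapped only through replicate B, whose treated array (6.19) lay above untreated A and D, yet each treated array was below the untreated one of its letter. The means were 5.81 ± 0.29 and 6.27 ± 0.19 (SD, n = 4 each), so the untreated mean was 1.38-fold higher. Only the untreated mean lay above the background threshold, and treated replicates A, C and D lay under it. The log2 fold change was -0.46 ± 0.15 SE with a 95% interval of -0.80 to -0.12 (limma adjusted p = 0.358), and with the block the interval was -0.65 to -0.27 and the adjusted p 0.0149.

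The second HOXB3 probe set, with a mean of 5.21 under the threshold, did not follow. It had 5.48, 5.18, 5.46 and 5.07 in TGFβ-treated cells, against 5.17, 5.06, 5.17 and 5.12 in untreated cells, a log2 fold change of 0.17. With the mean of both probe sets HOXB3 had -0.15 (limma adjusted p = 0.731).

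**Figure D2:**
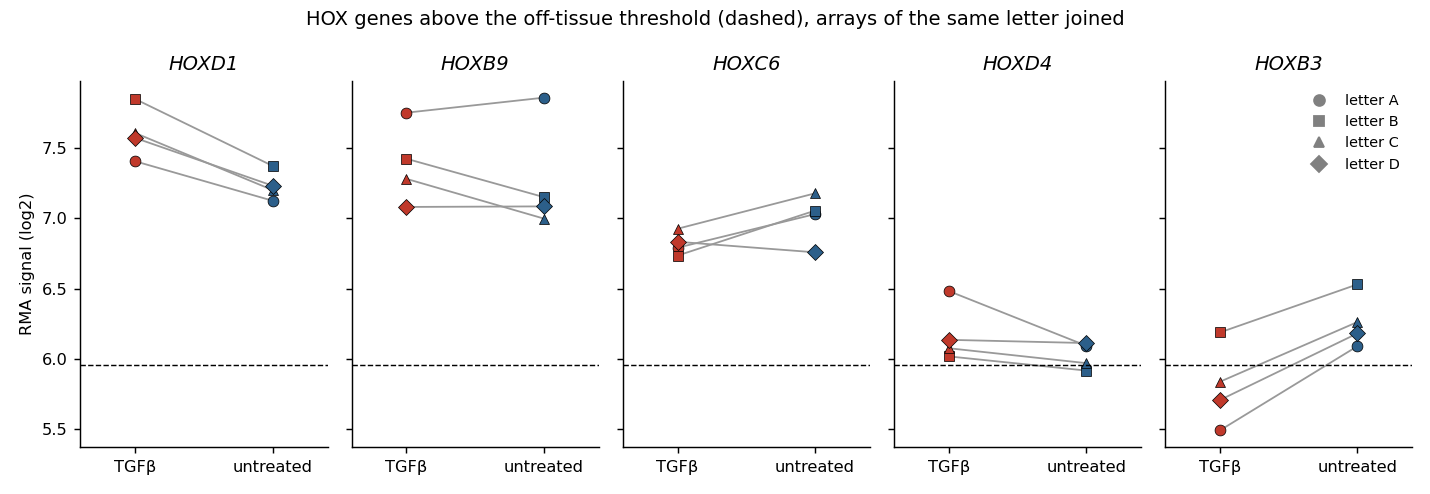
RMA signal (log2) of the 5 HOX genes above the threshold (dashed), with TGFβ on the left and untreated cells on the right, and lines that join arrays of the same replicate letter. HOXD1 is higher with TGFβ in all 4 pairs and HOXB3 lower in all 4, while HOXB9 and HOXC6 do not run the same way in all pairs.

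HOXB9, a posterior gene that in mouse acts in rib patterning and mammary growth, did not pass either fit. Its signal was 7.75, 7.42, 7.28 and 7.08 with TGFβ and 7.86, 7.15, 7.00 and 7.09 without. In both groups replicate A was the highest array, and the ranges overlapped widely. The log2 fold change was 0.11, with a 95% interval of -0.33 to 0.55, and -0.10 to 0.32 with the block (limma adjusted p = 0.959, 0.649 with the block). It was -0.011 without treated replicate A, and 0.31 without untreated replicate A.

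HOXC6, a central gene active in mouse mammary gland, had a signal of 6.79, 6.74, 6.93 and 6.83 with TGFβ and 7.03, 7.06, 7.18 and 6.76 without. The treated array was lower in 3 of 4 pairs, all but D. The log2 fold change was -0.18 ± 0.11 SE with a 95% interval of -0.42 to 0.05 (limma adjusted p = 0.755, 0.396 with the block). It has only 1 probe set, of a type that can match several transcripts.

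HOXD4, a central gene of hindbrain and neck vertebrae, had a signal of 6.48, 6.02, 6.08 and 6.14 with TGFβ and 6.09, 5.92, 5.97 and 6.11 without. The treated array was higher in all 4 pairs, but the groups overlapped, and treated replicate A (6.48) stood above the rest. The log2 fold change was 0.15 ± 0.12 SE with a 95% interval of -0.10 to 0.41 (limma adjusted p = 0.837, 0.474 with the block), and 0.05 without treated replicate A.

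Among the genes under the threshold, log2 fold changes ran from -0.22 to 0.30 and none passed either fit. The ends of that range were the members, beside HOXD1, whose groups did not overlap. HOXC10, a gene of the hindlimb level, had 3.56, 3.14, 3.19 and 3.21 with TGFβ and 2.80, 3.13, 2.87 and 3.10 without (log2 fold change 0.30 ± 0.12 SE, limma adjusted p = 0.526, 0.255 with the block). HOXC9, which in mouse sets thoracic motor neuron identity, had 3.57, 3.55, 3.66 and 3.67 with TGFβ and 3.81, 4.01, 3.79 and 3.73 without (-0.22 ± 0.09 SE, limma adjusted p = 0.54, 0.282 with the block). Both lie under the median of the genes of other tissues, where a signal cannot be told from background. In all, 3 of 28 members (10.7%) had groups that did not overlap, 2 with TGFβ above and 1 below, against 5.12% of all genes, 2.9% above and 2.21% below.

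**Figure D3:**
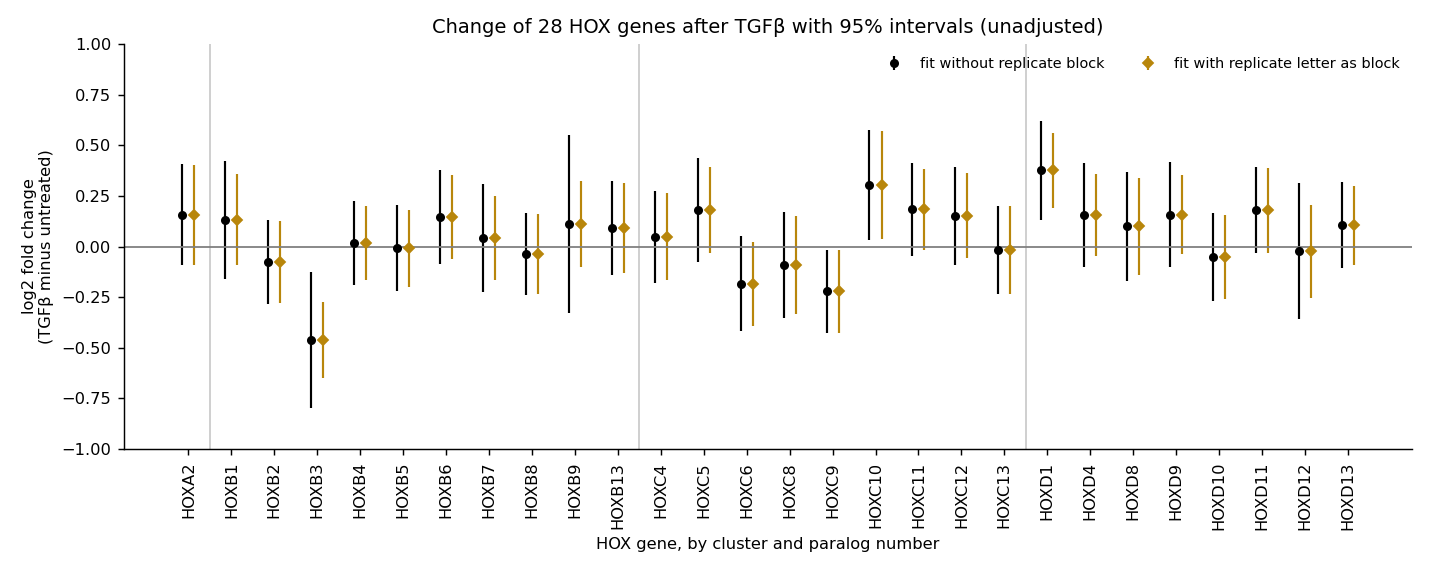
log2 fold change (TGFβ minus untreated) of each of the 28 HOX genes with its unadjusted 95% interval, from the fit without a block (circles) and with the replicate letter as a block (diamonds). Most intervals include 0, those of HOXD1 and HOXC10 lie above it and those of HOXB3 and HOXC9 below it in both fits.

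The intervals bound the changes that these arrays leave possible. For 24 of the 28 genes the 95% interval lay within 0.5 of 0 on the log2 scale, and for all 28 within 1, that is, a 2-fold change in either direction lay outside every interval. The widest interval was that of HOXB9, with a half-width of 0.44, and the median half-width was 0.24. These intervals are not adjusted for the number of genes, and RMA compresses changes of probe sets near background.

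Most members had a small positive log2 fold change, 18 of 28, with a median of 0.10. The background leaned the same way at low signal. Over all genes 52.8% were positive with a median of 0.009, and over the 10251 genes at or below the threshold 63.5% with a median of 0.04, while 15 of the 23 HOX genes under it (65.2%) were positive with a median of 0.09. Of the 46 genes of other tissues 33 were positive (71.7%), with a median of 0.07. Single arrays differed in the members: treated replicate A was the highest of its group in 13 of 28 members (46.4%, against 31.0% of all genes), and treated replicate B the lowest in 15 (7694 of 19775 genes). Untreated replicate B was the highest in 13 (46.4%, against 24.8% of all genes), and untreated replicate C the highest in 1 (3.57%, against 20.0%) and the lowest in 12 (4393 of 19775 genes). The median was 0.03 without treated replicate A, 0.10 without treated replicate B, 0.09 without untreated replicate B and 0.02 without untreated replicate C.

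Probe sets of one HOX gene often differed. Of the 13 members with several, the log2 fold change had the same sign in all probe sets for 6 genes and not for 7. No such share is given for the 10523 genes with several probe sets, so this is not read as particular to HOX genes. Mean signals of a gene's probe sets were 0.11 to 5.03 apart on the log2 scale, least in HOXB13 and most in HOXD1. Among the 4 genes above the threshold with several probe sets, HOXB3, HOXB9, HOXD1 and HOXD4, only 1 probe set of each lay above it. For HOXD4 the second had a mean of 5.59 and a log2 fold change in the same direction (0.09), and for HOXB9 5.40 and -0.05.

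**Figure D4:**
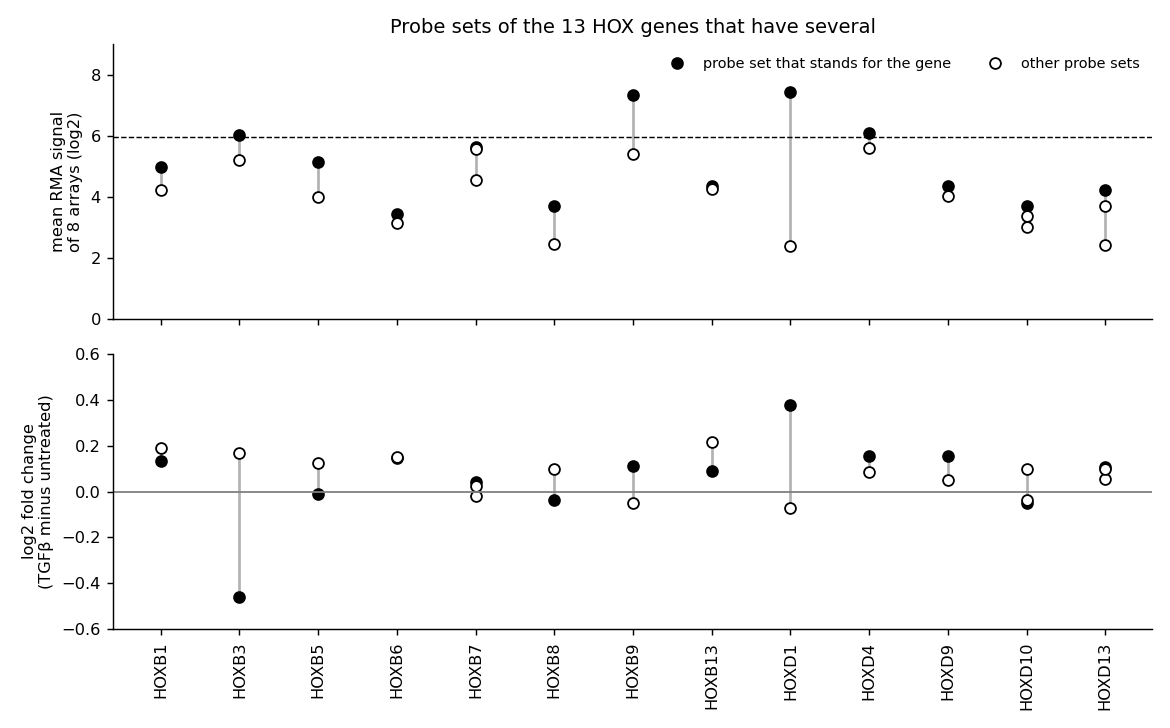
Mean RMA signal over 8 arrays (log2, upper panel, dashed line at the threshold) and log2 fold change (TGFβ minus untreated, lower panel) of every probe set of the 13 HOX genes with several; filled points stand for the gene. The probe sets of HOXD1 are 5.03 apart in signal, and those of HOXB3 lie on opposite sides of 0.

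The partners and regulators of HOX genes gave no call in the fit without the block either. Of the TALE cofactors 8 of 9 were measured and 6 lay above the threshold, among them PBX2 (mean 8.75), PBX3 (7.57) and MEIS2 (6.64), whereas MEIS1, a common HOX partner in leukaemia, had 4.01. None passed either fit, and the median log2 fold change was -0.02. The smallest p belonged to MEIS2 (-0.22 ± 0.11 SE, limma adjusted p = 0.72) and PBX3 (-0.16 ± 0.12 SE, adjusted p = 0.836).

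Of 24 Polycomb and MLL regulators 20 were measured, 18 of them above the threshold. None passed without the block, and the log2 fold change was below 0 in 16 of 20 (median -0.11). Over the 9524 genes above the threshold, where 18 of the 20 lie, 41.3% were positive and the median was -0.03. With the block KDM6B, a demethylase that removes the Polycomb mark, rose, and KMT2A, the MLL methyltransferase, and PHC3, a Polycomb subunit, fell, which is 3 of 20 genes where the block called 3.57% of all genes. None of the 3 was called in the block fits without letter B, C or D, which called 288, 321 and 356 of all genes against 705 with all letters. KDM6B had 7.53, 7.75, 7.62 and 7.72 with TGFβ and 7.28, 7.33, 7.29 and 7.33 without, with no overlap (log2 fold change 0.35 ± 0.09 SE, limma adjusted p = 0.152, 0.0475 with the block). KMT2A had 7.94, 7.90, 7.42 and 7.43 with TGFβ and 8.17, 8.26, 7.90 and 8.11 without, where treated replicate A lay above untreated replicate C (-0.44 ± 0.14 SE, adjusted p = 0.357, 0.0332 with the block). PHC3 averaged 7.57 ± 0.43 with TGFβ and 8.02 ± 0.27 without (SD, n = 4 each; limma adjusted p = 0.631, 0.0363 with the block).

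Of the retinoid and CDX genes 15 of 17 were measured, with none called without the block (0.576% of all genes were) and 2 with it (3.57% of all genes). In the block fits without 1 letter, CYP26B1 was not called without C, and RARA was not called without B, C or D. Those fits without B, C and D called 288, 321 and 356 of all genes, against 705 with all letters. CYP26B1, which degrades retinoic acid, had 7.08, 7.23, 7.11 and 6.87 with TGFβ and 6.21, 6.92, 6.18 and 6.29 without. Only untreated replicate B (6.92) reached the treated range. Its log2 fold change of 0.67 ± 0.16 SE is larger than that of any HOX gene (limma adjusted p = 0.136, 0.00827 with the block). RARA, a retinoic acid receptor, had 6.22, 6.17, 6.20 and 6.39 with TGFβ and 5.81, 5.78, 5.86 and 5.99 without, with no overlap (0.39 ± 0.09 SE, adjusted p = 0.13, 0.0264 with the block). RARA was read from a probe set of a type that can match several transcripts. Its untreated mean (5.86) lay under the background threshold and its treated mean (6.25) above it. The median of the list was 0.05.

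Of 20 noncoding RNAs of the clusters 12 were measured, and 2 lay above the threshold, HAGLR and HOTTIP, which lies at the posterior end of the HOXA cluster (mean 6.15). HOTTIP did not pass the highest of the 46 genes of other tissues (6.16), and its untreated replicate A (5.90) lay under the threshold. HOTAIR, from the HOXC cluster and known for a role in breast cancer metastasis, had a mean of 2.33, at the 2.13th percentile of all genes. None of the 12 passed either fit, and the median log2 fold change was 0.06. The smallest p belonged to HOXA-AS3 (0.15 ± 0.11 SE, limma adjusted p = 0.84) and HOXA-AS2 (0.13 ± 0.11 SE, adjusted p = 0.867).

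**Figure D5:**
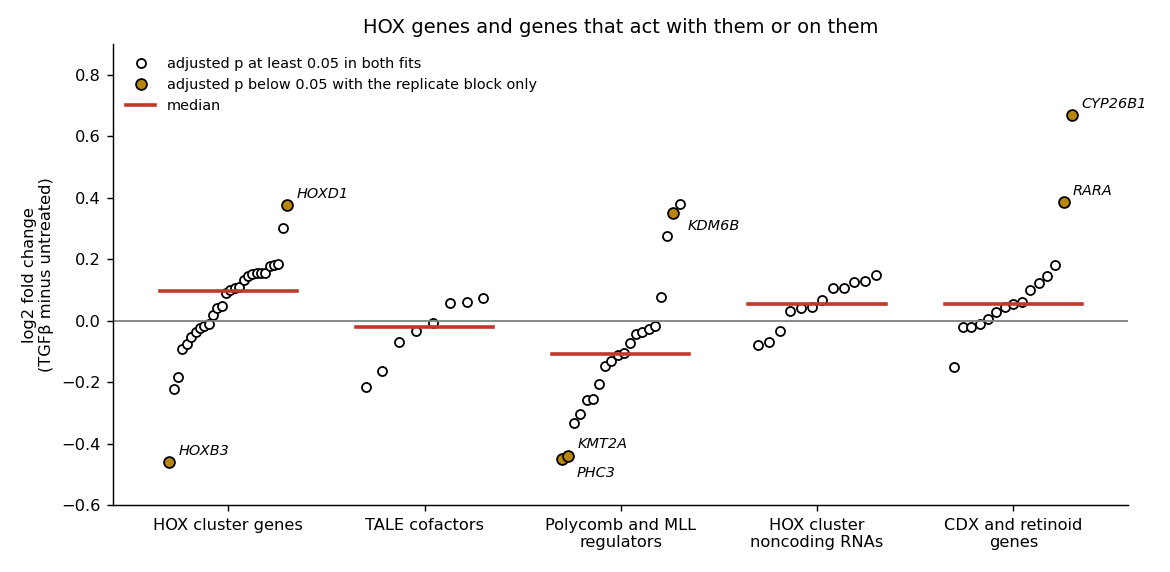
log2 fold change (TGFβ minus untreated) of the 28 HOX genes and of the measured members of 4 lists of partners, regulators and noncoding RNAs, sorted within each, with the median as a bar. Filled points passed with the replicate letter as a block only, and no point passed without it.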

How the data were processed

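The deposited table holds 1 value per probe set and array, which per the submitters' processing notes comes from RMA, run by the authors. Its version, and the arrays that were put through it jointly, are not stated in any source used here. The log2 scale of the deposited values was inferred from their range. Of 54675 probe sets 62 are controls; of the rest 41091 name 1 gene in GEO's platform annotation of the arrays, 1801 several and 11721 none. The number of arrays limits the precision.

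Groups came from the labels. The contrast was TGFβ-treated minus untreated, fitted in limma 3.58.1 under R 4.3.3 (moderated statistics with eBayes, two-sided, Benjamini-Hochberg over 19775 genes, threshold 0.05). The fits were also run on simulated data with added changes larger than that of any HOX gene. That run therefore does not show how often changes as small as those of the HOX genes would be called. The labels call the arrays biological replicates without naming separate cultures, so the p-values cover only how these 8 arrays vary, which may be technical. Same-letter arrays deviated together (correlations 0.49, 0.69, 0.34 and 0.30 for A to D), so the letter was used as a replicate block in a further fit. Arrays A, B and C correlated best with their own letter, but both D arrays correlated best with a C array; this pairing comes from the data.

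Members and lists were chosen with earlier results of these data known. Named were all HOX genes above the threshold or called in either fit, the 3 on each side of the threshold, the called members or else the 2 smallest p of each list, and check genes, of which 1 is not analysed here. Other genes, such as HOXC9, HOXC10, PBX2, MEIS1, HAGLR, HOTTIP and HOTAIR, were named after their values were seen. Alternatives were the replicate block, centring, quantile normalization again, a signal filter, a trended robust prior, the mean of probe sets, leaving out probe sets ending in _x_at or _s_at, and each array left out. Fits with the block but without 1 letter, and with the block over all probe sets, were chosen after seeing the data. Figures were drawn with matplotlib 3.10.9.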

Additional observations from a re-analysis of the deposited data

Results flagged for a closer look

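Among 56 sets of 4 arrays (28 HOX genes in 2 groups), 6 had 1 array far from the other 3 by Dixon's test, where chance gives about 1 in 20. Treated replicate A was that array for HOXC10 (3.56, the nearest other 3.21), HOXD9 (4.65, nearest 4.41) and HOXC13 (4.19, nearest 4.30). Treated replicate C was high for HOXB5 (5.26, nearest 5.10). Untreated replicate A was low for HOXB8 (3.56, nearest 3.75) and untreated replicate D low for HOXC5 (5.12, nearest 5.44). All 6 genes lie under the background threshold.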

How the results depend on the processing

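The count of called HOX genes was 0 under the other normalizations, the signal filter (which kept 9 members), the prior, both probe set choices and with any array left out. It was 2 with the replicate block, 2 with the block without letter A, 0 without letter B, C or D, and 1 (HOXB3) with the block over all probe sets. In the block fits without 1 letter the adjusted p of HOXD1 was 0.0237, 0.198, 0.13 and 0.139 without A, B, C and D, and that of HOXB3 0.0218, 0.0643, 0.0653 and 0.078. The block without a letter tests fewer arrays. HOXD1 had -0.073 without _x_at and _s_at probe sets, and HOXB9 ran between -0.011 (without treated replicate A) and 0.31 (without untreated replicate A). The median of the HOX genes stayed between 0.02 and 0.10 with any array left out. The 4 lists had 0 called genes, 5 with the block, 1 with the mean of probe sets (CYP26B1), 0 to 1 with an array left out, and 7, 1, 0 and 1 with the block without A, B, C and D. HOX genes above background numbered 5, with 8 at the 90th percentile, 3 at the highest background gene and 3 without _x_at and _s_at probe sets; the mean of probe sets also gave 5, with HOXB4 in place of HOXD1. The count over all genes was 114, 705 with the block, and 46 to 232 with an array left out. With the block without A, B, C and D it was 1304, 288, 321 and 356.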

Other observations

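A set of 3 probe sets names HOXD3, HOXD4 and LOC401021 together, so none was used for a gene. Their mean signals over 8 arrays were 4.90, 3.60 and 3.31 (log2), all under the background threshold. The first averaged 4.99 with TGFβ and 4.81 without, a log2 fold change of 0.18 (limma adjusted p = 0.825 over all probe sets).

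CDH1, which encodes E-cadherin, had a signal of 5.22, 4.98, 4.92 and 4.78 in TGFβ-treated cells, against 4.19, 3.93, 4.05 and 4.14 in untreated cells. All 4 treated arrays lay above all 4 untreated ones, yet all 8 lay under the background threshold of 5.95. The log2 fold change was 0.90 ± 0.11 SE (limma adjusted p = 0.00579, 0.000501 with the block).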
